A study of Mus musculus with 24 samples.

Results

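Fads1, Fads2, Elovl2, Elovl5 and Elovl3, which encode fatty acid desaturases and long-chain elongases, and Pitx3, the entry that overlaps Elovl3 on the other strand, were described in mouse liver RNA over all 8 groups of the study. They were taken by symbol from the deposited gene count table and are 6 of its 24421 entries. The choice was made with the 12-month results in view, that is, with the counts and fold changes of the diet and exposure comparisons at 12 months. Those comparisons are therefore given as a description, without p-values, and nothing is supported with them.

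Mammals cannot make linoleic and alpha-linolenic acid and take them from food. In the liver, the delta-6 desaturase Fads2 and the delta-5 desaturase Fads1 alternate with the elongases Elovl5 and Elovl2 to turn these acids into arachidonic, eicosapentaenoic and docosahexaenoic acid, and a last peroxisomal round of oxidation completes docosahexaenoic acid. Transcription of Fads1, Fads2 and Elovl5 is known to respond to SREBP-1 (Srebf1) and PPARα (Ppara) and to be lowered by dietary polyunsaturated fat. Elovl3 elongates saturated and monounsaturated very long chains and belongs to another branch of the pathway. Pitx3 is a homeobox transcription factor known from the eye lens and midbrain dopamine neurons.

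The animals were male C57Bl/6J mice. The 4 groups named m12 were fed for 12 months: m12_WD+VC had a Western diet (42% fat) and inhaled vinyl chloride (VC), m12_WD the Western diet and clean air, m12_CD+VC a control diet (13% fat) and VC, and m12_CD the control diet and clean air. The 4 groups named w12 (w12_WD+VC, w12_WD, w12_CD+VC and w12_CD) had the same diets and exposures and were taken at 12 weeks. VC, an industrial monomer that the liver oxidises, was given at 0.85 ± 0.1 ppm through 12 weeks, 5 days per week and 6 hours per day, so the m12 groups lived a further 9 months without it. Each group held 3 libraries of whole-liver RNA. Whether every library stands for 1 animal is not stated in the labels, so a p-value here speaks of the spread among libraries. The m12 and w12 groups differ in age, in feeding time and in the time since exposure, which cannot be told apart.

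The libraries were shallow, with 126160 to 962493 counts in 23 of 24 and 607 counts in w12_WD replicate 3. That library held 2 counts of the 6 members, both of Pitx3. It was left out of every mean and range (so n = 2 for w12_WD) and kept in the fit. Levels are given as CPM, a count scaled to the total of its library, and 3 counts, the most that a count of 0 allows, correspond to between 3.12 and 23.8 CPM in the 23 libraries, counting error only. Of 4198 genes that passed the expression filter, 5 were members, and Elovl3 did not pass. The filter looked at all libraries together, so a member low in some groups could pass through the groups where it was high. Of the 8 hepatocyte markers checked, 7 had counts in every group and Ass1 had none, and of the 4 adipocyte markers no group had more than 1 with counts. In whole tissue, fewer cells of a type and less RNA per cell cannot be told apart.

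By GENCODE M21 on GRCm38 (mm10), Fads2 (chr19:10062765-10101746, minus strand) and Fads1 (chr19:10182888-10196877, plus strand) lie in 1 cluster with their start sites 81.1 kb apart, and Fads3 ends 2.65 kb from the end of Fads2. Elovl3 (chr19:46131897-46135694, plus strand) and Pitx3 (chr19:46135685-46148326, minus strand) share 10 bases at their 3′ ends in GENCODE and 414 bases between the RefSeq gene spans. Elovl2 lies at chr13:41182381-41220405 on the minus strand and Elovl5 at chr9:77917364-77984519 on the plus strand. Exons of Fads1, Fads2, Elovl2 and Elovl5 overlap no exon of a gene on the other strand. With the counting's strand setting not given in the sources used here, reads of Elovl3 and Pitx3 cannot be told apart with certainty, and whether any entry holds reads of its own strand was not tested.

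The sequences just before the start sites of Elovl5, Elovl2 and Pitx3 are shown because these entries, with the desaturases, were lower together on Western diet after VC at 12 months. They are credited to RefSeq on GRCm38.p6, run 5′ to 3′ on the strand of the gene and end at the last base before the GENCODE start. Capitals mark the motif matches: CACGTG (the E-box) and CCAAT boxes in Elovl5, read as ATTGG where they lie on the other strand, and GC boxes (GGGCGG) in Elovl2 and Pitx3.
Elovl5, chr9:77917115-77917363, plus strand: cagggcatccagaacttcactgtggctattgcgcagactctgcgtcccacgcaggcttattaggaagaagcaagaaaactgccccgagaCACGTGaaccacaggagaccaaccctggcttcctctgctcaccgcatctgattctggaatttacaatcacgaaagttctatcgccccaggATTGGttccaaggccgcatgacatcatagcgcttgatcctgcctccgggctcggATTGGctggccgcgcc
Elovl2, chr13:41220406-41220653, minus strand: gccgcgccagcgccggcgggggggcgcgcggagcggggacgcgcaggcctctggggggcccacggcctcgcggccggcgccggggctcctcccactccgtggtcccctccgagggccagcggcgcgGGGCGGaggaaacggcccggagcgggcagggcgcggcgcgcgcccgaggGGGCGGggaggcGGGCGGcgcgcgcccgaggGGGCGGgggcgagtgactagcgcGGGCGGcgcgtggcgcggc
Pitx3, chr19:46148327-46148575, minus strand: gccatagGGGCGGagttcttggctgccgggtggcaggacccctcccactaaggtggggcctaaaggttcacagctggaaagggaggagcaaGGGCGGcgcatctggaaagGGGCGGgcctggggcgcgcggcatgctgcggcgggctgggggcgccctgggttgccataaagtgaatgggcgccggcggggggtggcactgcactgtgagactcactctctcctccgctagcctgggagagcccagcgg

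The Elovl5 window held 1 E-box and 2 CCAAT boxes, the Elovl2 window 5 GC boxes and the Pitx3 window 3. The Fads2 window, of which 243 of 250 bases lie inside the first GENCODE exon, held 1 GC box; Fads1 and Elovl3 were not matched. Both strands were searched, and no 2 of the matches shown overlap. Over 27025 promoter windows of 250 bases, 6.04% held CACGTG, 34.5% CCAAT and 33% GGGCGG. A short form of the sterol response element (TCACNCCAC, in 1.03% of windows) and the direct repeat of AGGTCA with 1 base between (0.037%) were searched too. Neither was in any of the 4 windows. A match is a description of letters and not a binding site.

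Levels of different genes were compared per kb of exon. In m12_CD livers Fads2 was the most abundant member, at 109 ± 38.7 CPM per kb, followed by Fads1 at 27.5 ± 3.65, Pitx3 at 13.7 ± 5.81, Elovl5 at 12.7 ± 8.29, Elovl2 at 6.59 ± 4.39 and Elovl3 at 2.03 ± 1.97 CPM per kb (SD, n = 3). In w12_CD livers the order was different: Pitx3 came first at 58.9 ± 20.1 CPM per kb, then Fads2 at 26.0 ± 17.0, Fads1 at 20.4 ± 17.2, Elovl5 at 18.6 ± 19.1, Elovl2 at 16.7 ± 14.3 and Elovl3 at 2.76 ± 2.57 CPM per kb (SD, n = 3). Of the w12_CD libraries, replicate 1 was the highest in Fads2, Fads1, Elovl5 and Elovl2 alike.

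Fads2, which inserts the first double bond of the pathway, had its highest levels in control diet livers at 12 months. It stood at 156, 133 and 110.3 CPM in m12_WD+VC, at 115, 287 and 234 CPM in m12_WD, at 464, 459.7 and 661 CPM in m12_CD+VC and at 217, 404 and 461 CPM in m12_CD. At 12 weeks it stood at 224, 201 and 210.4 CPM in w12_WD+VC, at 188 and 133 CPM in w12_WD, at 147, 78.1 and 80.0 CPM in w12_CD+VC and at 147, 72.6 and 37.6 CPM in w12_CD. Every m12_CD+VC library was above every m12_WD+VC library, and every w12_WD+VC library was above every w12_CD+VC library, so the 2 diets stood in opposite order at the 2 times. In the order of the group means, m12_CD+VC came first at 528 ± 115 CPM, then m12_CD, m12_WD, w12_WD+VC, w12_WD, m12_WD+VC, w12_CD+VC and last w12_CD at 85.8 ± 55.9 CPM. The ranges of neighbouring groups in this order overlapped, except those of w12_WD+VC and w12_WD.

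Fads1, the desaturase of the later step, was also highest in control diet livers at 12 months. Its levels were 28.3, 46.8 and 43.6 CPM in m12_WD+VC, 35.2, 145 and 41.6 CPM in m12_WD, 158 (replicate 1), 214 and 180 CPM in m12_CD+VC and 123, 121 and 153 CPM in m12_CD. At 12 weeks they were 33.5, 74.0 and 26.3 CPM in w12_WD+VC, 107 and 81.1 CPM in w12_WD, 35.6, 56.8 and 48.0 CPM in w12_CD+VC and 193 (replicate 1), 53.7 and 47.6 CPM in w12_CD. One m12_WD library, replicate 2, and one w12_CD library, replicate 1, stood above the others of their groups. The group means ran from 184 ± 28.0 CPM in m12_CD+VC and 132 ± 17.5 CPM in m12_CD down to 39.6 ± 9.91 CPM in m12_WD+VC, and m12_CD+VC and m12_CD were the sole neighbours in that order whose ranges did not overlap.

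**Figure D1:**
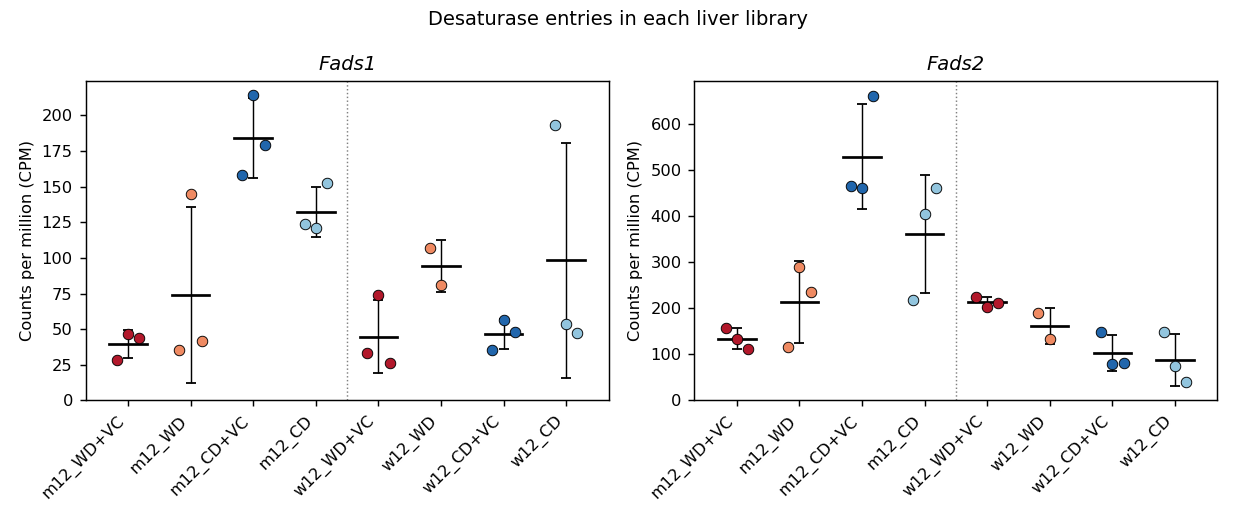
Levels of Fads1 (left) and Fads2 (right) in CPM for each library, by group; points are libraries, bars the mean and whiskers 1 SD (n = 3, n = 2 for w12_WD), and the dotted line parts 12 months from 12 weeks. In Fads2 the m12_CD+VC libraries lie at 459.7 to 661 CPM and the m12_WD+VC libraries at 110.3 to 156 CPM, while at 12 weeks the w12_WD+VC libraries (201 to 224 CPM) lie above the w12_CD+VC libraries (78.1 to 147 CPM).

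Elovl2, the elongase of the last steps towards docosahexaenoic acid, overlapped between all neighbouring groups. It stood at 21.2, 28.1 and 23.1 CPM in m12_WD+VC, at 51.8, 98.2 and 10.4 CPM in m12_WD, at 79.2, 174 and 31.2 CPM in m12_CD+VC and at 6.02, 36.1 and 36.2 CPM in m12_CD. At 12 weeks the libraries ran from 24.7 to 85.5 CPM in w12_WD+VC, 14.8 to 35.7 CPM in w12_WD, 26.7 to 78.3 CPM in w12_CD+VC and 32.6 to 132 CPM in w12_CD. The group means ran from 94.95 ± 72.9 CPM in m12_CD+VC to 24.1 ± 3.55 CPM in m12_WD+VC, and replicate 2 of m12_CD+VC was the highest library of all.

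Elovl5, the elongase between the steps of Fads2 and Fads1, had its highest and lowest means in the same groups as Elovl2. It stood at 28.3, 28.1 and 12.8 CPM in m12_WD+VC, at 33.3, 61.4 and 6.23 CPM in m12_WD, at 130.2, 87.2 and 54.7 CPM in m12_CD+VC and at 12.0, 68.0 and 54.3 CPM in m12_CD. At 12 weeks the libraries ran from 0 to 45.8 CPM in w12_WD+VC, 14.8 to 42.8 CPM in w12_WD, 18.7 to 80.7 CPM in w12_CD+VC and 25.3 to 143 CPM in w12_CD. The group means ran from 90.7 ± 37.9 CPM in m12_CD+VC to 23.1 ± 8.86 CPM in m12_WD+VC, and all neighbouring groups overlapped.

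**Figure D2:**
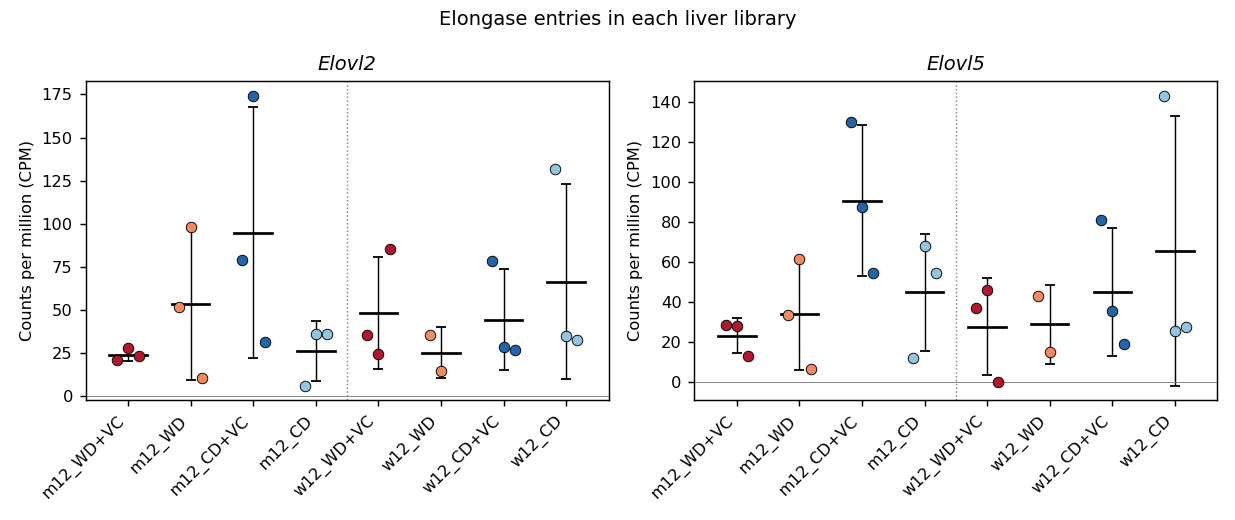
Levels of Elovl2 (left) and Elovl5 (right) in CPM for each library, by group; points are libraries, bars the mean and whiskers 1 SD (n = 3, n = 2 for w12_WD). All m12_WD+VC libraries lie below all m12_CD+VC libraries in both plots, most other groups overlap, and single libraries such as m12_CD+VC replicate 2 (174 CPM of Elovl2) and w12_CD replicate 1 (143 CPM of Elovl5) lie far above their groups.

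Elovl3 was near the detection limit in every group, while the Pitx3 entry beside it was not. Elovl3 summed to 2 counts in m12_WD+VC, 3 in m12_WD, 7 in m12_CD+VC, 5 in m12_CD, 2 in w12_WD+VC, 2 in w12_WD, 8 in w12_CD+VC and 6 in w12_CD. Its single libraries lay between 0 and 21.3 CPM, and the 8 group ranges overlapped with their neighbours in the order of the means. Fitted with no expression filter, it passed in none of 17 comparisons, with 0 at an unadjusted p under 0.05 and edgeR adjusted p values of 0.877 to 1 in those at 12 weeks. Pitx3 was listed at 0, 0 and 2.57 CPM in m12_WD+VC, at 0, 4.91 and 0 CPM in m12_WD, at 93.4, 7.93 and 20.8 CPM in m12_CD+VC and at 12.0, 29.8 and 20.7 CPM in m12_CD. At 12 weeks it stood at 5.29, 10.6 and 98.6 CPM in w12_WD+VC, at 61.8 and 66.4 CPM in w12_WD, at 140.0, 170.3 and 199.99 CPM in w12_CD+VC and at 101, 114 and 55.1 CPM in w12_CD. All w12_CD+VC libraries were above the other libraries with at least 10000 counts, and both Western diet groups at 12 months were at 0 to 4.91 CPM. One w12_WD+VC library, replicate 3, and one m12_CD+VC library, replicate 1, stood far above the others of their groups. Between neighbours in the order of the Pitx3 means, the ranges did not overlap for w12_CD+VC and w12_CD or for m12_CD and m12_WD.

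**Figure D3:**
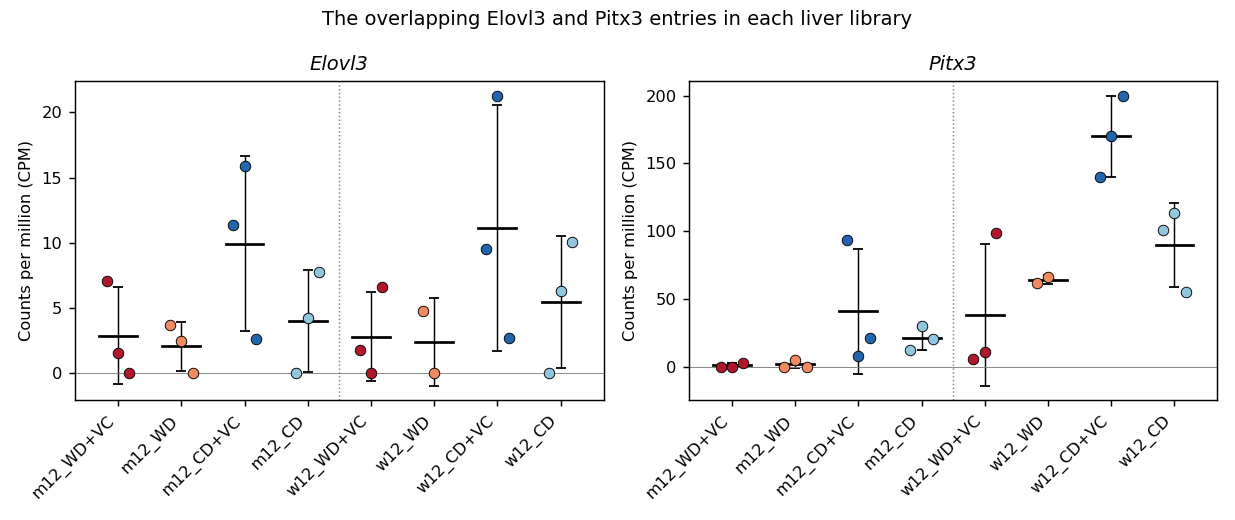
Levels of the overlapping entries Elovl3 (left) and Pitx3 (right) in CPM for each library, by group; points are libraries, bars the mean and whiskers 1 SD (n = 3, n = 2 for w12_WD), and the axes differ in scale. Elovl3 stays at or under 21.3 CPM, whereas Pitx3 reaches 140.0 to 199.99 CPM in w12_CD+VC and lies at 0 to 4.91 CPM in m12_WD+VC and m12_WD.

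Of all counts that fell on this pair of entries, the Pitx3 entry took 71 of 88 at 12 months, or 80.7% (95% interval 70.9% to 88.3%, exact Clopper-Pearson, counting error only), and 298 of 316 at 12 weeks, or 94.3% (91.1% to 96.6%). The share was 1 of 3 counts in m12_WD+VC, 2 of 5 in m12_WD, 42 of 49 in m12_CD+VC and 26 of 31 in m12_CD. It was 21 of 23 in w12_WD+VC, 35 of 37 in w12_WD, 158 of 166 in w12_CD+VC and 84 of 90 in w12_CD. Across the 23 libraries the log2 levels of the 2 entries had a Pearson r of 0.40 and a Spearman rho of 0.34, from libraries that share groups and depth and hold 0 to 4 Elovl3 counts each.

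At 12 months of feeding, in the groups given VC, Western diet livers had lower levels than control diet livers of every member that could be tested. The log2 difference (m12_WD+VC minus m12_CD+VC, edgeR, ± SE) was -2.0 ± 0.35 for Fads2, -2.09 ± 0.47 for Fads1, -1.72 ± 0.66 for Elovl2 and -1.96 ± 0.71 for Elovl5. Pitx3 had 1 count in m12_WD+VC against 42 in m12_CD+VC, a ratio per total count of 0.0175 (95% counting interval 0.000434 to 0.103), and Elovl3 had 2 against 7. The 2 groups did not overlap for any of the 5 tested members, against 12.5% of all tested genes with m12_WD+VC wholly lower. At an adjusted p under 0.05, 3 of 5 members (Fads1, Fads2 and Pitx3) were called, all lower, beside 1.81% of all genes called and 1.1% called lower; the members were chosen on this comparison, and nothing is read from these shares. Leaving out 1 library ended calls while the differences of Fads1 and Fads2 stayed about as large. Without m12_WD+VC replicate 2 no call remained (Fads2 -1.96, Fads1 -2.16, Pitx3 -4.25). Without m12_WD+VC replicate 1 or 3 that of Fads1 was lost (-1.95 and -2.15), and without m12_CD+VC replicate 1 that of Pitx3 (-3.78). The Pitx3 difference with all libraries was -5.18, and m12_CD+VC replicate 1 held 33 of the 42 Pitx3 counts of its group. Elovl5 passed when the compared groups were fitted alone (-2.02). Summed hepatocyte markers moved the same way, at 5040 to 7561 CPM in m12_WD+VC and 13241 to 29169 CPM in m12_CD+VC. Other marker lists moved the opposite way: the 6 endothelial markers summed to 212 to 319.8 CPM in m12_WD+VC and 98.9 to 198 CPM in m12_CD+VC, and the 5 cholangiocyte markers to 42.4 to 92.4 CPM in m12_WD+VC and 7.81 to 28.3 CPM in m12_CD+VC, with Krt19 and Krt7 at 0 there. The part of these markers in the result was not tested.

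Without VC, the 12-month diet difference was negative for the desaturases, Elovl5 and Pitx3 and positive for Elovl2. The log2 difference (m12_WD minus m12_CD) was -1.13 ± 0.33 for Fads2, -1.29 ± 0.42 for Fads1 and -0.88 ± 0.65 for Elovl5, while the Elovl2 groups overlapped with the higher mean in m12_WD. Pitx3 had 2 counts in m12_WD against 26 in m12_CD, a ratio of 0.0479 (95% counting interval 0.00551 to 0.191), and Elovl3 had 3 against 5. Fads1, Fads2 and Pitx3 were called, 3 of 5, beside 24.5% of all genes called and 11.1% called lower. Of the members, the groups did not overlap for Pitx3 alone, against 9.43% of genes with m12_WD wholly lower. The members were chosen on this comparison too, and nothing is read from these shares. Fads1 and Fads2 lost the call with RLE scaling (-0.85 and -0.73), with DESeq2 (-0.82 and -0.73) and without m12_CD replicate 3 or m12_WD replicate 1, and Fads1 also without m12_WD replicate 3 and when m12_WD and m12_CD were fitted alone. Here the summed hepatocyte markers ran from 6254 to 15059.8 CPM in m12_WD and from 2153 to 7792 CPM in m12_CD, and the 9 macrophage and Kupffer cell markers, all with counts, from 507 to 749 CPM in m12_WD and from 51.2 to 122 CPM in m12_CD. The stellate markers summed to 142 to 165 CPM in m12_WD and 0 to 25.5 CPM in m12_CD, the endothelial markers to 289 to 320.0 CPM in m12_WD and 85.4 to 117 CPM in m12_CD, and the cholangiocyte markers to 81.4 to 216 CPM in m12_WD and 0 to 10.3 CPM in m12_CD; their part in the result was not tested.

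The change of the 12-month diet difference with VC (the first difference minus the second) was -2.28 ± 0.91 on the log2 scale for Elovl2, -1.08 ± 0.97 for Elovl5, -0.87 ± 0.48 for Fads2 and -0.80 ± 0.63 for Fads1. No member was called by edgeR or DESeq2, 1 member had an unadjusted p under 0.05 and 9.81% of all genes were called. Elovl2 was called when m12_WD replicate 3 was left out. Fads1 was at 0.020 without m12_WD replicate 2, the library in which it was highest in its group.

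VC itself was compared at 12 months within each diet, 9 months after the exposure had ended. On Western diet, Fads2 (-0.63 ± 0.35), Fads1 (-0.69 ± 0.47) and Elovl2 (-0.95 ± 0.65) had negative log2 differences (m12_WD+VC minus m12_WD). All 5 tested members overlapped between these groups, 0 were called by edgeR or DESeq2, 0 had an unadjusted p under 0.05 and 0.572% of all genes were called. On control diet, the log2 difference (m12_CD+VC minus m12_CD) was 1.33 ± 0.64 for Elovl2, 0.67 ± 0.64 for Elovl5 and 0.75 ± 0.72 for Pitx3. The Fads1 groups did not overlap, with m12_CD+VC higher, as for 25.1% of all tested genes, yet with the scaling of the fit their levels differed by less than their SE. On control diet 0 members were called by either tool, 1 had an unadjusted p under 0.05 and 5.22% of all genes were called. The summed hepatocyte markers of these groups were 13241 to 29169 CPM in m12_CD+VC and 2153 to 7792 CPM in m12_CD, and those of macrophages 208 to 280.2 CPM in m12_CD+VC and 51.2 to 122 CPM in m12_CD. Their part in the result was not tested. The Pitx3 difference on control diet turned to -0.71 without m12_CD+VC replicate 1, and the Fads1 difference on Western diet turned to 0.12 without m12_WD replicate 2.

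The 12-week diet comparisons use none of the libraries behind the choice of members. There Fads2 had the opposite order from 12 months, with higher levels on Western diet. With VC, the log2 difference (w12_WD+VC minus w12_CD+VC) was 1.06 ± 0.37 for Fads2, with a 95% interval of 0.34 to 1.78 and all 3 Western diet libraries above all 3 control diet libraries, against 8.34% of genes so separated. After adjustment over all 4198 genes it did not pass the threshold (edgeR adjusted p = 0.247). Pitx3 was lower on Western diet by a log2 difference of -2.63 ± 0.67, also without overlap (7.38% of genes were so separated), and missed the threshold too (edgeR adjusted p = 0.0683). It passed with no expression filter (-2.71, edgeR adjusted p = 0.000106) and without w12_WD+VC replicate 3 (-4.40, edgeR adjusted p = 0.00176). Fads1, Elovl2 and Elovl5 overlapped between the diets, with 95% intervals of -0.97 to 1.05, -1.34 to 1.21 and -1.89 to 0.93. With VC at 12 weeks 0 of 5 members were called by edgeR or DESeq2, 2 had an unadjusted p under 0.05 and 0.524% of all genes were called.

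Without VC at 12 weeks, Fads2 again had a positive log2 difference, 0.93 ± 0.42 (w12_WD minus w12_CD, 95% interval 0.11 to 1.75, edgeR adjusted p = 0.853), with overlapping libraries. The difference was -1.19 ± 0.78 for Elovl2 and -0.94 ± 0.81 for Elovl5, the second of which turned to 0.12 without w12_CD replicate 1. Fads1 and Pitx3 overlapped, with intervals of -1.01 to 0.99 and -1.65 to 1.05. Here 0 members were called by edgeR or DESeq2, 1 had an unadjusted p under 0.05 and 0.0238% of all genes were called. The mean of the diet differences with and without VC, a comparison added after seeing the data, was 1.0 ± 0.28 for Fads2 (edgeR adjusted p = 0.09) and -1.46 ± 0.48 for Pitx3 (edgeR adjusted p = 0.199). It called 0 of 5 members, also with DESeq2, with 2 at an unadjusted p under 0.05, and 0.333% of all genes. Fads2 passed in it without w12_CD replicate 1 (1.24, edgeR adjusted p = 0.0373) and Pitx3 without w12_WD+VC replicate 3 (-2.35, edgeR adjusted p = 0.0093).

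**Figure D4:**
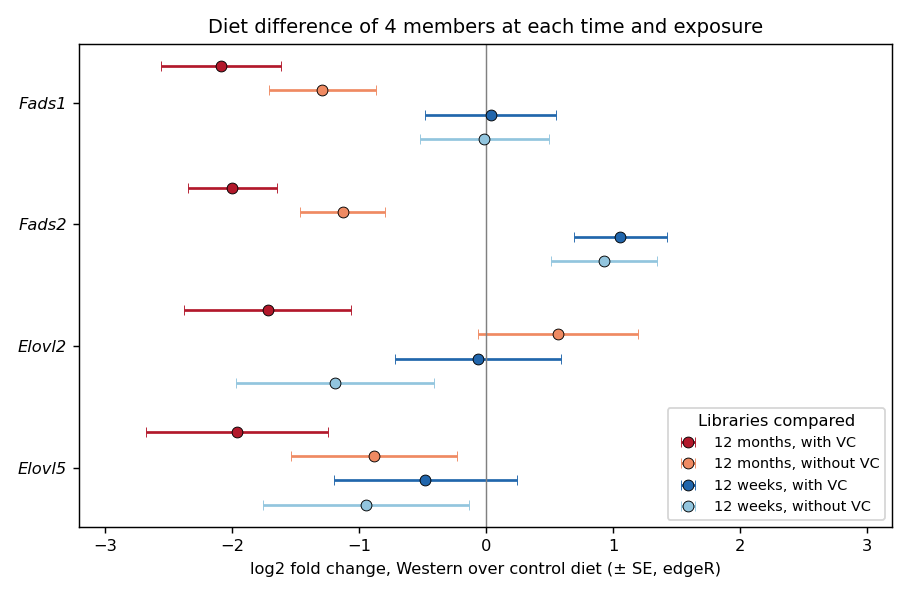
Log2 fold change of Western over control diet (edgeR, whiskers 1 SE) for Fads1, Fads2, Elovl2 and Elovl5 at each time, with and without VC; the line at 0 marks equal levels. Fads2 lies at -2.0 and -1.13 at 12 months and at 1.06 and 0.93 at 12 weeks, and Fads1 lies at -2.09 and -1.29 at 12 months and near 0 at 12 weeks.

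The change of the diet difference between 12 months and 12 weeks was computed in 1 model, as a comparison added after seeing the data. It contains the 12-month difference that the choice of members used, so its values are a description. With VC, the diet difference of Fads2 at 12 months lay below that at 12 weeks by a log2 value of -3.06 ± 0.51 (95% interval -4.05 to -2.07). Of all genes 0.0238% were called, Fads2 among them, and nothing is read from that call because the members were chosen on part of the same values. In fits that left out 1 library the value lay between -3.39 and -2.78. Fads1 was at -2.12 ± 0.70, Elovl2 at -1.66 ± 0.93 and Elovl5 at -1.48 ± 1.01, none of them called. Without VC the value of Fads2 was -2.06 ± 0.53 (95% interval -3.11 to -1.01), where 6.67% of all genes were called, Fads2 among them. It was no longer called with RLE scaling (-1.65), with DESeq2 (-1.63) and without w12_WD replicate 1 (-1.78) or 2 (-2.22). Fads1 without VC was at -1.28 ± 0.66 and Elovl2 at 1.76 ± 1.0.

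VC at 12 weeks, compared at the end of the exposure, gave no call among the members. On Western diet Fads1 was at 33.5, 74.0 and 26.3 CPM with VC and 107 and 81.1 CPM without, a log2 difference of -0.98 ± 0.54 (w12_WD+VC minus w12_WD, edgeR adjusted p = 0.92) with groups that did not overlap. Fads2 went the other way, at 0.47 ± 0.40, also without overlap. The shares of genes so separated there were 12.9% lower and 11% higher. On control diet Fads1 had a similar log2 difference of -1.03 ± 0.48 (w12_CD+VC minus w12_CD, edgeR adjusted p = 1), which shrank to -0.27 without w12_CD replicate 1. Pitx3 had a log2 difference of 0.94 ± 0.58 on control diet, with all w12_CD+VC libraries above all w12_CD libraries, against 4.17% of genes, and -1.39 ± 0.77 on Western diet. Of 5 members, edgeR and DESeq2 each called 0 in both diets, and 0% of all genes were called by edgeR. At an unadjusted p under 0.05 there were 0 members and 235 genes on Western diet, and 1 member and 170 genes on control diet. The diet by VC term at 12 weeks called 0 members with edgeR and with DESeq2, and 0.0238% of all genes with edgeR. In it 1 member, Pitx3, had an unadjusted p under 0.05 (-2.33 ± 0.96).

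Between 12 weeks and 12 months, Fads2 rose in control diet livers under both exposures. The time comparisons share the 12-month libraries on which the members were chosen, so their p-values are those of the fit over all genes and no independent support. On control diet without VC the log2 difference (m12_CD minus w12_CD) of Fads2 was 2.26 ± 0.36 (edgeR adjusted p = 0.000841). Every m12_CD library was above every w12_CD library, as for 6.5% of genes, and Fads2 passed in 7 of 7 other settings and in 6 of 6 fits that left out a library (1.95 to 2.75). It was the 1 member called, by edgeR and by DESeq2, beside 1.62% of all genes. The summed hepatocyte markers overlapped, at 2153 to 7792 CPM in m12_CD and 4796 to 11621.5 CPM in w12_CD, and their part in the result was not tested. Pitx3 was at -1.93 ± 0.67 (edgeR adjusted p = 0.124), Elovl2 at -1.10 ± 0.64 and Fads1 at 0.66 ± 0.43, and none of these passed.

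On control diet with VC, Fads2 rose by a log2 difference of 2.16 ± 0.36 (m12_CD+VC minus w12_CD+VC, edgeR adjusted p = 0.00167) and Fads1 by 1.79 ± 0.47 (edgeR adjusted p = 0.0231). Pitx3 fell by 2.12 on the log2 scale (SE 0.63, edgeR adjusted p = 0.0394), with 42 counts in m12_CD+VC against 158 in w12_CD+VC. The groups did not overlap for these 3, as for 20.6% of genes higher and 9.55% lower at 12 months, and they were the 3 of 5 members called, beside 6.38% of all genes, 3.24% higher and 3.14% lower. Fads2 passed in all 7 other settings and all 6 fits without a library. Fads1 lost the call without w12_CD+VC replicate 1 or 3, without m12_CD+VC replicate 2 or 3, and when entries without an opposite-strand overlap were tested alone. Pitx3 lost it without w12_CD+VC replicate 3 or m12_CD+VC replicate 2 or 3, and in 3 of 6 other settings, RLE scaling and DESeq2 among them. Elovl2 (0.65 ± 0.62) and Elovl5 (0.77 ± 0.66) overlapped between the times. The summed hepatocyte markers were 13241 to 29169 CPM in m12_CD+VC and 4879.8 to 8281 CPM in w12_CD+VC. The macrophage markers summed to 208 to 280.2 CPM in m12_CD+VC and 71.0 to 133 CPM in w12_CD+VC, and the stellate markers to 75.5 to 119 CPM in m12_CD+VC and 15.999 to 56.8 CPM in w12_CD+VC. The part of these markers in the result was not tested.

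On Western diet neither desaturase passed the test between the times with all libraries. Without VC, Fads2 overlapped between m12_WD and w12_WD (95% interval -0.57 to 0.97), and Fads1 had a log2 difference of -0.62 ± 0.50 that passed without m12_WD replicate 2 (-1.50, edgeR adjusted p = 0.0439). Pitx3 fell, with 2 counts in m12_WD against 35 in w12_WD, a ratio per total count of 0.0166 (95% counting interval 0.00194 to 0.0648, edgeR adjusted p = 0.000188). It was the 1 member called, by edgeR and by DESeq2, beside 14.6% of all genes, and it stayed called in 6 of 6 other settings and 6 of 6 fits that left out a library. These fits reuse the same libraries and are no independent support. No m12_WD library held more than 2 Pitx3 counts, so Pitx3 entered the test through groups where it was higher, and its call is a description. With VC, Fads2 was lower in every m12_WD+VC library than in every w12_WD+VC library, as were 5.57% of genes, with a log2 difference of -0.90 ± 0.36 (edgeR adjusted p = 0.275). Pitx3 had 1 count in m12_WD+VC against 21 in w12_WD+VC, a ratio of 0.0407 (95% counting interval 0.000985 to 0.253, edgeR adjusted p = 0.0692). With VC on Western diet 0 members were called by edgeR or DESeq2, 2 had an unadjusted p under 0.05 and 0.786% of all genes were called. Fads2 passed there when the 2 groups were fitted alone (edgeR adjusted p = 0.0367), and Pitx3 with no expression filter (edgeR adjusted p = 0.000486) and without w12_WD+VC replicate 1 (edgeR adjusted p = 0.0201). Marker lists of other cell types stood higher at 12 months on this diet. Macrophage markers summed to 507 to 749 CPM in m12_WD and 59.0 to 85.6 CPM in w12_WD, and stellate markers to 142 to 165 CPM in m12_WD and 14.8 to 35.7 CPM in w12_WD. Endothelial markers summed to 289 to 320.0 CPM in m12_WD and 125 to 126 CPM in w12_WD, and cholangiocyte markers to 81.4 to 216 CPM in m12_WD and 7.38 to 9.51 CPM in w12_WD. With VC the macrophage markers summed to 254 to 491 CPM in m12_WD+VC and 84.6 to 171 CPM in w12_WD+VC. Their part in the results was not tested.

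The ratio of Fads2 to Fads1 within a library, per kb of exon, does not depend on the depth or scaling of that library. Its median was 4.14 in m12_WD+VC, 4.77 in m12_WD, 4.28 in m12_CD+VC and 4.41 in m12_CD, with 2.56 to 8.21 over all 12 libraries of 12 months. At 12 weeks the median was 9.76 in w12_WD+VC, 2.48 in w12_WD, 2.43 in w12_CD+VC and 1.15 in w12_CD. All 3 w12_CD libraries, at 1.11 to 1.98, were below all 12 libraries of 12 months, and the w12_WD+VC libraries lay at 3.96 to 11.7. The counting error of the ratio does depend on depth. The w12_WD+VC libraries held 19, 21 and 4 Fads1 counts, and the one with 4 gave the ratio of 11.7. Fads2 was above Fads1 per kb in each of the 23 libraries. This rests on the exon lengths in w12_CD replicates 1 and 3, where Fads2 had fewer counts than Fads1 (38 against 50 and 15 against 19). Across these libraries the log2 levels of Fads1 and Fads2 had a Pearson r of 0.60 and a Spearman rho of 0.50, and those of Fads1 and Elovl5 of 0.60 and 0.58. For Elovl2 and Elovl5 they were 0.52 and 0.64. These values describe libraries that share group, depth and scaling.

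**Figure D5:**
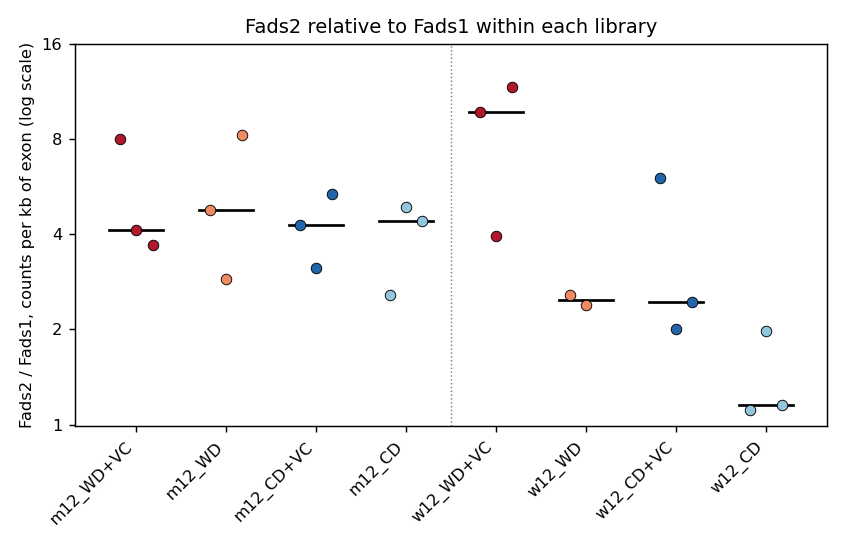
Ratio of Fads2 to Fads1, both in counts per kb of exon, in each of 23 libraries, by group, on a log axis; points are libraries and bars group medians. The 4 groups of 12 months have medians of 4.14 to 4.77, and at 12 weeks the medians run from 1.15 in w12_CD to 9.76 in w12_WD+VC.

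Of the pathway around the members, the neighbour Fads3 and the SREBP-retaining protein gene Insig1 were lower on Western diet at 12 months. Lists of related genes were fixed with earlier results of these data known, and their counts stand beside very different shares of all genes: 0.715% called higher and 1.1% lower with VC, against 13.4% higher and 11.1% lower without. Of 12 other desaturases and elongases 5 were tested. Fads3, the remaining desaturase gene of the cluster, averaged 484 ± 229 CPM in m12_WD+VC, 622 ± 759 in m12_WD, 3038 ± 1108 in m12_CD+VC and 6911 ± 1761 in m12_CD (SD, n = 3). Its log2 difference was -2.61 ± 0.59 with VC and -3.89 ± 0.58 without. The Fads3 entry was high for m12_CD, where Fads2 averaged 360 ± 128 CPM and the hepatocyte marker Alb 3125 ± 1895 CPM, none of them scaled per kb. It ends 2.65 kb from the end of Fads2 on the other strand, and the strand setting was not given. Whether its reads come from Fads3 was not tested. Insig1, whose product holds SREBP in the endoplasmic reticulum and which is itself an SREBP target, was at -3.59 ± 0.85 with VC and -2.34 ± 0.63 without. The ceramide desaturase and hydroxylase Degs2 went the other way, at 1.59 ± 0.40 with VC and 1.81 ± 0.39 without. Scd1, the stearoyl-CoA desaturase, Elovl6, its partner elongase, and Srebf1 passed in none of the comparisons.

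The peroxisomal genes of the last step stood differently with and without VC. Of 8 listed, 6 were tested. In m12_WD+VC against m12_CD+VC, 2 were called lower, among them the transporter Abcd3 (-1.63 ± 0.44), with a median log2 difference of -0.97 beside -0.01 over all genes. In m12_WD against m12_CD, 4 of the 6 were called higher, among them the thiolase Acaa1b (1.77 ± 0.42), with a median of 1.30 beside 0.11 over all genes. In the diet by VC term at 12 months all 6 were called lower, with a median of -2.10. Of all genes, 9.81% were called in that term and 6.48% called lower. The median difference with VC against without was 1.47 on control diet and -0.61 on Western diet. Summed hepatocyte markers, whose values are given with the members above, were likewise lower in m12_WD+VC than in m12_CD+VC and, with overlap, higher in m12_WD than in m12_CD, and their part in these counts was not tested. Of the elongation cycle and its electron supply, with 6 of 9 tested, none was called with VC; without VC cytochrome b5 (Cyb5a) was called higher (1.81 ± 0.37) and its reductase Cyb5r3 lower (-1.59 ± 0.33), the median being 0.30. Both acyl-CoA synthetases tested, Acsl1 (1.37 ± 0.48) and Acsl5 (1.17 ± 0.43), were called higher without VC and neither with it. Of 8 tested regulators, Ppara (3.09 ± 0.84) and the carbohydrate sensor Mlxipl (1.48 ± 0.46) were called higher and Insig1 lower without VC, and Insig1 alone with VC. Some of these groups were near the detection limit. Ppara summed to 5 counts in m12_CD against 78 in m12_WD, and Insig1 to 7 in m12_WD+VC against 68 in m12_CD+VC. Of 4 tested genes for incorporation into phospholipids, Agpat2 (1.81 ± 0.43) and Agpat3 (2.0 ± 0.65) were called higher without VC and none with it.

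At 12 weeks edgeR called 0 of the 34 tested genes of these lists in each comparison, with 1 to 3 at an unadjusted p under 0.05. In the time comparison on control diet with VC, Insig1 rose (2.66 ± 0.78, edgeR adjusted p = 0.0271) as Fads1 and Fads2 did, and so did Cyb5a (1.39 ± 0.38, edgeR adjusted p = 0.0285) and Hsd17b4, the peroxisomal bifunctional enzyme (1.55 ± 0.48, edgeR adjusted p = 0.048). Lpcat3, which places polyunsaturated chains in phospholipids, fell by 0.87 (SE 0.27, edgeR adjusted p = 0.0491). On control diet without VC, Cyb5r3 rose (1.65 ± 0.34, edgeR adjusted p = 0.00886), and Fads3 was at 1.85 ± 0.57 (edgeR adjusted p = 0.0993). On Western diet without VC, Degs2 (1.67 ± 0.45, edgeR adjusted p = 0.013), Agpat2 (1.84 ± 0.53, edgeR adjusted p = 0.0138), Acaa1a (1.69 ± 0.53, edgeR adjusted p = 0.0239) and Cyb5a (1.31 ± 0.42, edgeR adjusted p = 0.036) rose. In that comparison 5 of the 34 tested list genes were called, beside 14.6% of all genes. On control diet 6 of 34 were called with VC, beside 6.38% of all genes, and 1 of 34 without VC, beside 1.62%.

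The genes with the pattern most like a member's were found by Pearson r of log2 CPM over 23 libraries among 3863 genes. For Fads1 they were Fdps (0.84), Fads3 (0.84), Insig1 (0.84), Usp24 (0.74) and Gss (0.74). Over the 8 group means 1 of these 5, Insig1, remained among the leading 5 (0.99). For Fads2 they were Pstpip2 (0.73), Zswim1 (0.73), Fdps (0.73), Frmd4b (0.73) and Acss2 (0.72), of which 0 remained over group means. Fdps, the farnesyl diphosphate synthase of sterol synthesis, was on both lists. For Elovl3, with few counts, the nearest was Tmie (0.76), and for Pitx3, added after seeing the data, Hectd2 (0.90), Egfr (0.88) and Xirp1 (0.85). These values come from libraries that share groups, depth and scaling, and carry no test.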

How the data were processed

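Deposited were raw counts for 24421 gene symbols in 24 libraries, 1 table for all, and log2 values in a file per sample. Those log2 values, per the file contents as the authors deposited them, equal log2(count / size factor + 1), with 0 exceptions beyond 1e-06. The submitters' processing notes name Trimmomatic 0.38, HISAT2 2.1.0, HTSeq 0.11.2 and mm10; the annotation, the strand setting and any filters were not given in the sources used here. All tests used the counts, in 1 edgeR 4.0.16 quasi-likelihood model of 8 groups (R 4.3.3) with its expression filter, TMM scaling and Benjamini-Hochberg adjustment over 4198 genes at a threshold of 0.05; the common biological coefficient of variation was 0.317. Intervals are 95% Wald intervals. CPM uses a library's total count, unlike the TMM-scaled differences. There were 14 comparisons, and 3 were added after seeing the data. The members, the gene lists and the tests were chosen with earlier results of these data known. Named genes are the 6 members, up to 4 called genes per list and comparison with the smallest adjusted p, the 5 genes most like a member (log2 CPM with a prior count of 2) and neighbours in the genome. Not all of these are printed, and 1 listed gene and 1 searched motif are not reported here. Fads3 in the time comparison, Scd1, Elovl6 and Srebf1 were chosen after their values were seen. Alternatives were RLE scaling, no expression filter, DESeq2 1.42.0, a replicate block, the compared groups alone and each library left out, and, after seeing the data, entries without an opposite-strand overlap alone (bedtools 2.31.1, GENCODE M21) and no library under 10000 counts. The fit was also run on simulated counts in which 200 genes were changed. All genes shared 1 spread there, unlike in the data, and nothing about the results is read from it.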

Additional observations from a re-analysis of the deposited data

Results flagged for a closer look

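The diet difference of Fads2 (Western minus control diet) was negative at 12 months and positive at 12 weeks. Neither 12-week difference passed the threshold (edgeR adjusted p = 0.247 with VC and 0.853 without), and the 12-week libraries without VC overlapped. With VC, the log2 difference at 12 months minus that at 12 weeks was -3.06, computed as an interaction term of the edgeR model. Fads2 was at 133 ± 22.6 CPM in m12_WD+VC and 528 ± 115 CPM in m12_CD+VC, and at 212 ± 11.7 CPM in w12_WD+VC and 102 ± 39.3 CPM in w12_CD+VC (SD, n = 3). Without VC the same term was -2.06. Fads2 was at 212 ± 88.4 CPM in m12_WD and 360 ± 128 CPM in m12_CD, and at 160.3 ± 38.9 CPM in w12_WD (n = 2) and 85.8 ± 55.9 CPM in w12_CD. Both were singled out because this term passed the threshold over all genes in the edgeR model. Both contain the 12-month difference on which Fads2 was chosen, so they are a description and no independent test, and the term without VC missed the threshold with RLE scaling (-1.65) and DESeq2 (-1.63).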

How the results depend on the processing

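Of the 5 tested members, the number called moved by more than 1.5 times in these settings. For the 12-month diet difference without VC it was 1 in place of 3 with RLE scaling and with DESeq2 (667 in place of 1028 of all genes). It was also 1 with the compared groups alone, where Pitx3 was not tested and Fads1 lost the call. With no expression filter it was 1 in place of 0 for the 12-week diet difference with VC, for its mean over both exposures and for time on Western diet with VC, the last also with the compared groups alone, and 2 in place of 1 for time on control diet without VC. With entries without an opposite-strand overlap alone, which leaves out Pitx3, it was 0 in place of 1 for time on Western diet without VC and 1 in place of 3 for time on control diet with VC. For diet by time without VC it was 0 in place of 1 with RLE scaling and DESeq2, and 2 with no filter and with the compared groups alone. Leaving out 1 library each, the number ran from 0 to 3 for the 12-month diet difference with VC, 1 to 3 without VC and 0 to 1 for the diet by VC term. It ran from 0 to 1 for the 12-week diet difference with VC and its mean over both exposures, and for time on Western diet with VC. It ran from 1 to 2 for time on Western diet without VC, 1 to 3 for time on control diet with VC, 1 to 1 for the same without VC and for diet by time with VC, and 0 to 3 for diet by time without VC. It stayed at 0 to 0 for both VC comparisons at 12 months and for the other comparisons at 12 weeks. Calls over all genes moved in these fits as well. For the 12-month diet difference they ran from 2 to 72 genes with VC and 645 to 1069 without VC, and for diet by VC from 87 to 626. For time on Western diet they ran from 2 to 25 with VC and 176 to 638 without VC, and on control diet from 52 to 189 and 24 to 69. For diet by time they ran from 1 to 2 with VC and 44 to 358 without VC. Values that turned sign did so without 1 library. The log2 difference of Fads1 ran from -0.99 to 0.12 (VC on Western diet at 12 months) and from -1.04 to 0.020 (diet by VC), above 0 without m12_WD replicate 2. That of Pitx3 ran from -0.71 to 1.04 (VC on control diet at 12 months), below 0 without m12_CD+VC replicate 1, and that of Elovl5 from -2.04 to 0.12 (12-week diet difference without VC), above 0 without w12_CD replicate 1. The replicate numbers did not pair the samples: same-numbered libraries correlated at -0.31 to 0.24, with 9 of 33 pairs over 0.1 and 0 of 12 comparisons with every pair over 0.1. The replicate block changed 1 call of a member, Pitx3 for time on control diet with VC (-2.04, edgeR adjusted p = 0.0506), where 2 in place of 3 members were called. RLE scaling shifted the median log2 difference of all genes by -0.12 and 0.39 (12-month diet difference with and without VC), 0.41 (VC on control diet) and -0.51 (diet by VC). For time it shifted it by 0.13 and 0.24 on Western diet with and without VC and by 0.26 and -0.13 on control diet, and for diet by time by -0.12 with and 0.38 without VC. Libraries were left out for the members alone and not for the listed genes. The cause of these changes was not tested, and with 0 to 4 Elovl3 counts a library a difference of Elovl3 is poorly resolved at this depth.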
